A study of Danio rerio with 3 samples.

Results

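The long non-coding RNA malat1 and the protein-coding genes of nuclear splicing were followed in RNA sequenced from muLECs, the mural lymphatic endothelial cells of the zebrafish brain. The members were malat1 (ENSDARG00000099970) and every row of the count table whose symbol, ignoring case, starts with srsf, hnrnp, sf3a, sf3b, snrp, u2af or prpf. They came to 77 of the 32105 genes of the table, malat1 and 76 protein-coding genes, among 26269 genes with a symbol. The study holds 1 group, wildtype adult fish, with 3 libraries and no other cell population. Each library came from 6 pooled brains dissociated with Liberase, from which cells with the lyve1 DsRed reporter were sorted and their RNA amplified. The labels do not say whether the 3 pools were sorted on separate days, so p-values measure the spread between these libraries, which may be in part technical.

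Splicing removes introns in the nucleus through small nuclear ribonucleoproteins (snRNPs), most of them a small RNA held by a ring of Sm proteins, with proteins specific to each particle. SR proteins, encoded by the srsf genes, mostly favour the use of an exon, and hnRNP proteins coat the new transcript and often oppose it. U2AF and the SF3A and SF3B subunits mark the end of the intron and its branch point, and the PRPF proteins build and drive the later complexes. In mammals, Malat1 RNA stays in the nucleus, gathers at nuclear speckles, where SR proteins are stored, and is found in most tissues.

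The libraries held 36044297, 35168650 and 34307745 reads in replicates 1, 2 and 3, and 7472, 6117 and 9739 genes reached 10 reads. Levels are given as reads, or as CPM, counts scaled to library size with TMM factors, which even out library composition. Neither is divided by transcript length. Summed CPM of 8 lymphatic endothelial marker genes, all 8 of them tested, was 5509 to 7076. The same sum was 673 to 2391 for 6 oligodendrocyte markers, 1035 to 3311 for 7 macrophage and microglia markers, 219 to 371 for 9 neuron markers, 50.7 to 339 for 8 radial glia and astroglia markers, 228 to 970.2 for 7 pericyte and smooth muscle markers and 0.0265 to 2.72 for 3 erythrocyte markers. In replicates 1, 2 and 3, oligodendrocyte markers summed to 673, 2391 and 783 CPM, and pericyte and smooth muscle markers to 388, 970.2 and 228. Radial glia and astroglia markers summed to 50.7, 339 and 73.7 CPM, and macrophage and microglia markers to 1085, 1035 and 3311. The lymphatic and neuron sums were also highest in replicate 2. The balance of marker sums thus differed between libraries, and its bearing on the members was not tested. Of the defining markers, ELAVL3, GFAP, OLIG2, P2RY12 and PDGFRB had 3 reads or fewer in each library. Others of the same lists stood above the median gene by an edgeR test against the median tested gene: 3 of 4 tested oligodendrocyte markers, 3 of 4 of macrophages and microglia, 3 of 3 of pericytes and smooth muscle, 2 of 8 of neurons and 1 of 3 of radial glia and astroglia, beside 6 of 8 lymphatic endothelial markers and 23.4% of all tested genes. The lymphatic list holds lyve1a and lyve1b, and the cells were sorted by a lyve1 reporter, so that list is not independent of the sort. Splicing factors are made in every cell type, and how much of their RNA came from each was not tested. In such bulk libraries, fewer cells of a type and less RNA per cell cannot be told apart.

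malat1 took more reads than any other gene in all 3 libraries. It had 10221477, 11723625 and 7232321 reads in replicates 1, 2 and 3, which was 28.4%, 33.3% and 21.1% of each library, or 27.6% ± 6.16 (SD, n = 3). The gene with the next most reads was epd in replicates 1 and 3, with 1931075 and 4021548 reads, and GLUL in replicate 2, with 1669576. For each read of that next gene there were 5.29, 7.02 and 1.80 reads of malat1. The lead of malat1 was thus narrowest in replicate 3. On the TMM scale malat1 stood at 270602, 418807 and 175842 CPM, a mean of 288417 ± 122458 CPM (SD, n = 3). The authors' deposited YuGene score, which runs from 0 to 1 and orders genes within a library, was 0.9994, 0.9993 and 0.9995 for malat1.

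Against malat1, the 76 splicing factor genes together were small in reads. They summed to 108793, 95725 and 93449 reads in replicates 1, 2 and 3, which was 0.282% ± 0.0171 of all reads (SD, n = 3). With the reads of malat1 taken out of the total, the share was 0.421%, 0.408% and 0.345%. For each read of the 76 genes there were 94.0, 122 and 77.4 reads of malat1 in replicates 1, 2 and 3, or 97.9 ± 22.8 (SD, n = 3). The share of malat1 and the number of genes detected ran in opposite order over the libraries: replicate 2 had the largest share and the fewest genes with 10 reads, and replicate 3 the smallest share and the most genes. Whether one bears on the other was not tested.

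**Figure D1:**
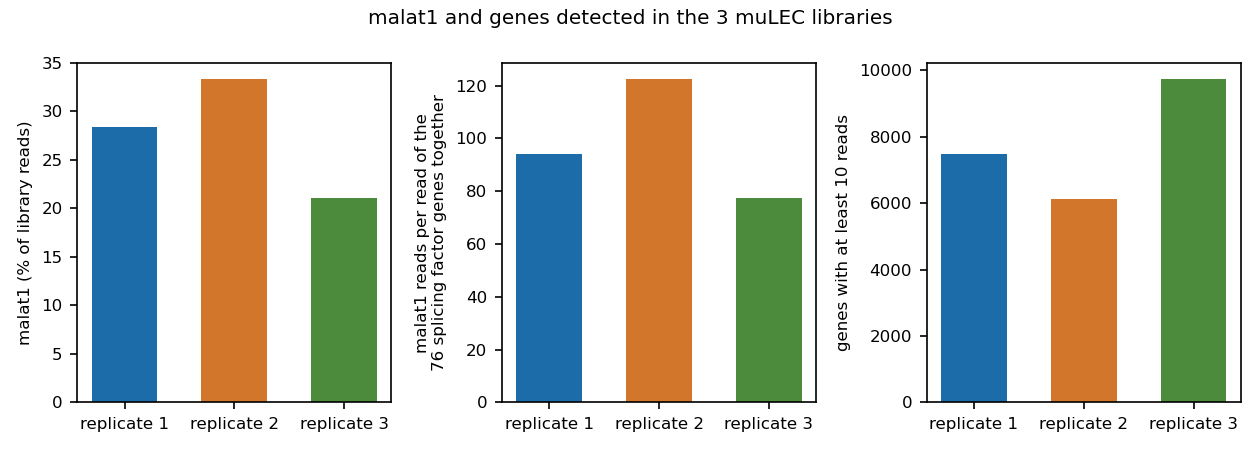
Bars give, for each of the 3 muLEC libraries, the share of reads taken by malat1 (%), the reads of malat1 for each read of the 76 splicing factor genes summed, and the number of genes with at least 10 reads. Replicate 2 has the highest share of malat1, 33.3%, and the fewest genes detected, 6117, while replicate 3 has the lowest share, 21.1%, and the most genes, 9739.

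Most splicing factor genes were detected. Of the 76 protein-coding members, 58 had at least 10 reads in 2 or more libraries and entered the test, which is 76.3%, beside 25.8% of all genes with a symbol. At least 10 reads in all 3 libraries were found for 43 members, or 56.6%, beside 15% of genes with a symbol. A further 15 reached 10 reads in 2 libraries, 14 in a single library and 4 in none. The test asked whether a gene's reads stood above or below those of the median tested gene of the same library, which had 475, 328 and 523 reads in replicates 1, 2 and 3. It was edgeR's quasi-likelihood test at a Benjamini-Hochberg adjusted p under 0.05 over all 7111 tested genes. By it malat1 stood above the median gene, with a log2 ratio of 14.53 ± 0.86 (SE; adjusted p = 1.23e-20).

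Most members that passed the test were hnRNP and SR protein genes, and with all 3 libraries no snRNP or PRPF gene passed. By the same edgeR test, 18 of the 58 tested members stood above the median gene and 0 below. That is 31% above, beside a background of 23.4% of all tested genes above and 1.24% below. For the count of 0, there were 0 members below at an unadjusted p under 0.05, DESeq2 called 0 members below, beside 0% of all genes, with 0 at an unadjusted p under 0.05, and limma-trend called 4, beside 14.7% of all genes. The median log2 ratio of the tested members was 1.18, beside 0.22 for all tested genes. Members above were 11 of 21 tested hnrnp genes, 4 of 12 srsf, 1 of 3 u2af, 1 of 3 sf3a and 1 of 2 sf3b. They included 0 of 10 tested snrp and 0 of 7 tested prpf genes. The hnrnp and srsf families thus also held most of the tested members. Because reads grow with transcript length, this sets reads against reads, not molecules against molecules. A gene that did not pass may still lie above the median gene. In simulated counts the test called 50% of genes placed at 4 times the median gene.

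Calls changed with the library left out. Without replicate 1, 10 members stood above the median gene, beside 23.3% of all genes tested then. The number was 16 without replicate 2, beside 27.2%, and 9 without replicate 3, beside 21.1%. These fits tested 46 to 51 members. Without replicate 1 and without replicate 3 the members' share above was near that of all genes, a little under it. Without replicate 2 the members' share was over that of all genes. These differences were not tested. Fewer low genes pass the filter with 2 libraries, and the log2 ratio of the 18 members then fell by a median of 0.95, 0.64 and 1.02 without replicates 1, 2 and 3. The 9 members called with each library left out in turn were hnrnpa0l, hnrnpa0b, HNRNPK (ENSDARG00000007034), both HNRNPAB genes, SRSF3 (ENSDARG00000025397), srsf7a, srsf5a and U2AF2 (ENSDARG00000012505). Of the 1666 genes above with all 3 libraries, 1165, 1457 and 937 stayed above without replicates 1, 2 and 3. Of the 18 members, 10, 14 and 9 did. How many of all genes stayed above in each of these fits in turn was not counted. Calls below the median gene came to 1 member without replicate 1, hnrnpc at -3.83, and 2 without replicate 3, among them SF3A1 at -4.19. The share of all genes called below in those fits was not counted.

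**Figure D2:**
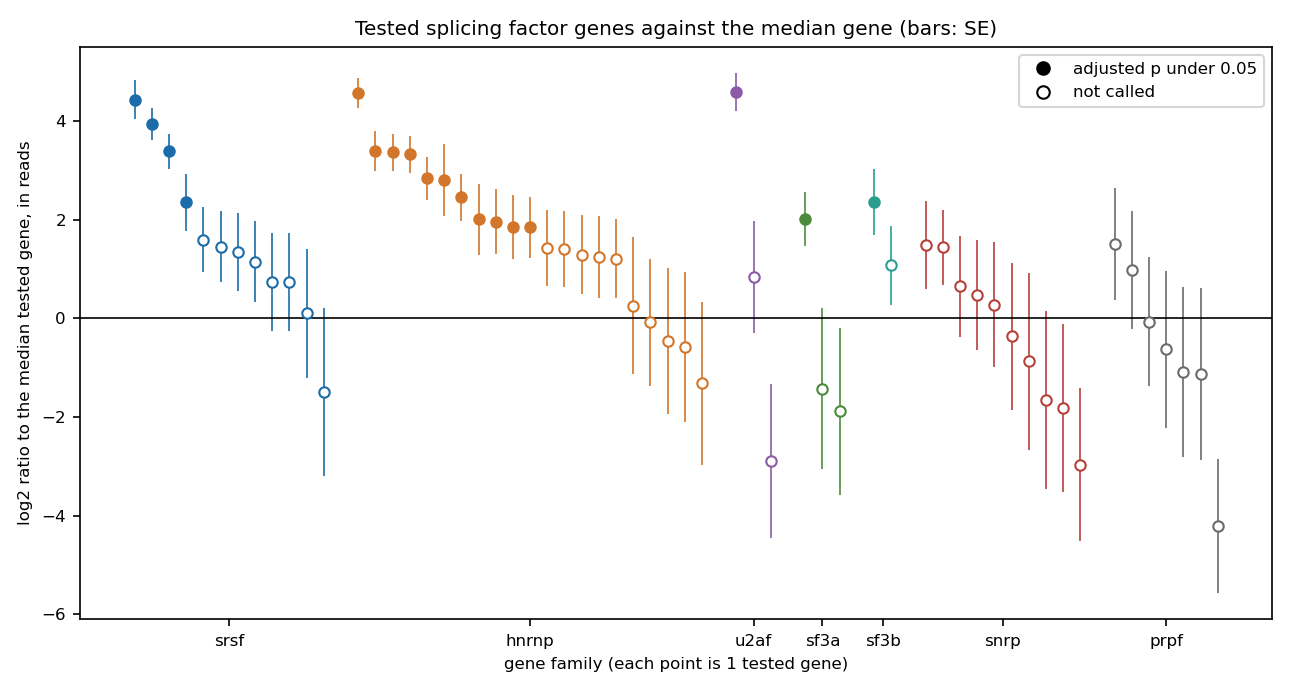
Each point is 1 of the 58 tested splicing factor genes, at its log2 ratio in reads to the median tested gene, with its standard error as a bar; filled points passed the edgeR test and open points did not. The 18 filled points all lie above 0 and 11 of them are hnrnp genes, while all snrp and prpf points are open.

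The SR protein genes held several of the members with the most reads, among them SRSF3, srsf7a and srsf5a. Tests covered 12 of 17 srsf genes, and 4 were above the median gene and 0 below, 33.3% of those tested beside the background of 23.4%. Their median log2 ratio was 1.40. The count was 3 with any 1 replicate left out. That was 27.3% beside 23.3% without replicate 1, 25% beside 27.2% without replicate 2 and 27.3% beside 21.1% without replicate 3. SRSF3 (ENSDARG00000025397), the smallest SR protein in mammals, where it also acts in RNA export, had 10078, 11575 and 4231 reads in replicates 1, 2 and 3. It was lowest in replicate 3. Its mean was 261 ± 155 CPM (SD, n = 3), and its log2 ratio to the median gene 4.43 ± 0.39 (SE; edgeR adjusted p = 2.48e-09).

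The row srsf3a, a copy of the same gene by name, had 2137, 2935 and 958 reads and likewise was lowest in replicate 3. Its log2 ratio was 2.35 ± 0.57 (edgeR adjusted p = 8.20e-04). Leaving out replicate 1, 2 or 3 ended the call, at log2 ratios of 1.37, 1.20 and 1.52, and the mean of 61.6 CPM was 39.9 CPM without replicate 2. The reads of SRSF3 to those of srsf3a kept a nearly fixed ratio, with log2 values of 2.24, 1.98 and 2.14, a mean of 2.12 ± 0.13 (SD, n = 3). No source used here says how near-identical copies were counted, so both values are uncertain. The other SRSF3 row (ENSDARG00000059360) had 882, 1358 and 863 reads and did not pass, at 1.35 ± 0.79.

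srsf7a, whose mammalian counterpart is close to SRSF3 in its RNA-binding part, had 7510, 5687 and 6729 reads and was among the most even members. Its level was 189 ± 21.7 CPM (SD, n = 3), and its log2 ratio 3.94 ± 0.33 (SE; edgeR adjusted p = 3.05e-09). srsf5a had 5608, 3664 and 4332 reads, 128 ± 21.7 CPM and a log2 ratio of 3.38 ± 0.36 (edgeR adjusted p = 9.28e-08). Both were found at a like level in every library. SRSF11, another SR protein gene, had 1204, 1090 and 1658 reads, which on the CPM scale lay between 31.9 and 40.3. It did not pass by edgeR, at 1.59 ± 0.66 (adjusted p = 0.0505), and passed by limma-trend.

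The other srsf genes did not pass. SRSF1 (ENSDARG00000057691), the prototype SR protein gene, had 1270, 781 and 837 reads, and srsf2a, a gene of the speckle protein SC35, had 1121, 586 and 438. SRSF5 (ENSDARG00000027734) had 1002, 639 and 489 reads and SRSF4 had 275, 606 and 414. Some rows were nearly empty. The second SRSF1 row (ENSDARG00000017843) had 5, 2 and 37 reads, srsf2b had 1, 0 and 0, and srsf10b had 0 in each library. SRSF9 had 0, 5 and 346 reads and SRSF7 (ENSDARG00000101057), the other copy beside srsf7a, had 1, 205 and 0. For SRSF2 and SRSF7, then, nearly all reads lay in the a copy.

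The hnRNP genes were the family most often found in every library. Tests covered 21 of 24 hnrnp genes, and the same 21 had at least 10 reads in all 3 libraries. By edgeR, 11 stood above the median gene and 0 below, 52.4% of those tested beside the background of 23.4%, with a median log2 ratio of 1.84. The count was 6 without replicate 1 (28.6% beside 23.3%), 9 without replicate 2 (42.9% beside 27.2%) and 5 without replicate 3 (23.8% beside 21.1%), so without replicate 3 the share was near the background. The 3 not tested were hnrnph3, hnrnpr and hnrnpa3. The family summed to 1343, 1467 and 1090 CPM in replicates 1, 2 and 3, out of 2880, 3420 and 2272 CPM for all 76 splicing factor genes.

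hnrnpa0l, of the A/B group of hnRNPs, had 12564, 7490 and 11344 reads. On the CPM scale it was even, at 333, 268 and 276 CPM, and its log2 ratio was 4.56 ± 0.30 (SE; edgeR adjusted p = 9.86e-11). hnrnpa0b had 3675, 4153 and 5002 reads, 122 ± 25.5 CPM (SD, n = 3) and a log2 ratio of 3.32 ± 0.37 (edgeR adjusted p = 1.55e-07). Its counterpart hnrnpa0a had 1296, 128 and 2517 reads, low in replicate 2. It did not pass, at 1.40 ± 0.76, and passed without replicate 2, at 1.50. Of the HNRNPAB genes, ENSDARG00000007960 had 5884, 3719 and 3701 reads, at 3.36 ± 0.37 (edgeR adjusted p = 1.34e-07). The other, ENSDARG00000099865, had 3605, 3170 and 2212 reads, at 2.84 ± 0.44 (edgeR adjusted p = 7.47e-06). Both HNRNPAB rows were thus well read in every library.

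HNRNPK, whose protein binds C-rich RNA, also had a pair of rows. ENSDARG00000007034 had 2816, 5629 and 4318 reads, 127 ± 66.0 CPM (SD, n = 3) and a log2 ratio of 3.39 ± 0.41 (SE; edgeR adjusted p = 3.04e-07). ENSDARG00000018914 had 2296, 2295 and 2375 reads, almost the same number in each library, and a log2 ratio of 2.45 ± 0.47 (edgeR adjusted p = 9.85e-05). The call of the second HNRNPK row was lost without replicate 3, at 1.37, although replicate 3 was its lowest library in CPM.

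The remaining hnRNP genes above the median gene differed more between libraries. hnrnpl2 had 6419, 46 and 3794 reads, so that replicate 2 was far below the others, and its highest library stood 103 times above its lowest in CPM. Its log2 ratio was 2.80 ± 0.73 (SE; edgeR adjusted p = 8.73e-04). Its mean of 87.9 CPM was 46.9 CPM without replicate 1 and 131 CPM without replicate 2. The call was lost without replicate 1 (1.30), without replicate 3 (1.77) and where small counts were set to 0.

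HNRNPD, which takes part in the decay of AU-rich RNA in mammals, had 507, 3015 and 923 reads, at 2.00 ± 0.72. That call was lost without replicate 1 (1.39), 2 (0.09) or 3 (1.05), and its mean of 47.9 CPM was 17.9 CPM without replicate 2. It was also lost by limma-trend, with TMM scaling and with small counts set to 0. HNRNPU (ENSDARG00000004735), the scaffold attachment factor, had 683, 2516 and 1330 reads, at 1.96 ± 0.66, lost without replicate 1 (1.34), 2 (0.58) or 3 (0.89). Its mean of 46.8 CPM was 25.2 CPM without replicate 2. Replicate 2 was the highest library for both.

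HNRNPM had 1352, 1995 and 1005 reads, at 1.85 ± 0.65, lost without replicate 1 (0.99), 2 (0.81) or 3 (0.93). hnrnpul1l had 3292, 557 and 1117 reads, at 1.84 ± 0.62, lost without replicates 1 (0.12) and 3 (1.05), with a mean of 44.7 CPM that was 23.5 CPM without replicate 1. The 10 tested hnrnp genes that did not pass ran in log2 ratio down to -1.32, the value of hnrnpc, of the core hnRNP particle, which had 462, 18 and 91 reads. hnrnpa1a, of the same particle, had 579, 194 and 539 reads. Both had fewer reads than hnrnpa0l and hnrnpa0b in each library. The row hnrnpa3 had 1, 0 and 0 reads, hnrnpr had 1, 0 and 10, and hnrnph3 had 678, 6 and 0.

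U2AF marks the 3′ end of the intron, its large subunit (U2AF2) on the pyrimidine tract and its small subunit (U2AF1) on the AG that closes the intron. All 3 u2af genes were tested, and 1 was above the median gene, 33.3% beside the background of 23.4%. U2AF2 (ENSDARG00000012505) had 9704, 13699 and 5019 reads, highest in replicate 2 and lowest in replicate 3. Its level was 257, 489 and 122 CPM, and its log2 ratio 4.58 ± 0.39 (SE; edgeR adjusted p = 1.32e-09). Its mean of 289 CPM was 189 CPM without replicate 2. The second U2AF2 row (ENSDARG00000011740) had 42, 1269 and 740 reads, low in replicate 1, and did not pass, at 0.84 ± 1.14. U2AF1 had 60, 3 and 140 reads and did not pass, at -2.89 ± 1.56. The leading U2AF2 row thus had more reads than U2AF1 in each library.

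Subunits of SF3A and SF3B, which hold the branch point in the U2 snRNP, were uneven among themselves. All 3 sf3a genes were tested, and SF3A3 alone was above the median gene. It had 1465, 1618 and 2159 reads, a level of 49.7 ± 9.81 CPM (SD, n = 3) and a log2 ratio of 2.02 ± 0.55 (SE; edgeR adjusted p = 0.00278). The call was lost without replicate 1 (1.30) and without replicate 3 (0.80), though its reads were steady. SF3A1 had 54, 44 and 455 reads and SF3A2 had 184, 2 and 218, and neither passed, at -1.42 ± 1.63 and -1.89 ± 1.70.

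Tests covered 2 of 6 sf3b genes. SF3B1, the large subunit that wraps the branch point duplex, had 4497, 107 and 2923 reads, low in replicate 2. It stood above the median gene at 2.36 ± 0.67 (SE; edgeR adjusted p = 0.00264). Its mean of 64.6 CPM was 37.4 CPM without replicate 1, and the call was lost without replicate 1 (0.96) and without replicate 3 (1.29). SF3B6, which contacts the branch point adenosine in human spliceosomes, had 995, 445 and 1491 reads and did not pass, at 1.07 ± 0.80. The others were close to empty in some libraries: SF3B2 had 7, 0 and 39 reads, SF3B3 had 1, 0 and 29, SF3B4 had 5, 0 and 3, and SF3B5 had 1, 414 and 1.

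The snRNP protein genes were detected, and many were nearly missing from a library, at shares near those of all genes at like read counts. Tests covered 10 of 12 snrp genes, and 4 had at least 10 reads in all 3 libraries, 33.3% beside 15% of genes with a symbol. By edgeR 0 of the 10 stood above the median gene and 0 below, beside the background of 23.4% above and 1.24% below, with a median log2 ratio of -0.05. Those of the Sm ring took 8 rows. SNRPE had 766, 1457 and 1084 reads, 32.9 ± 16.9 CPM (SD, n = 3) and a log2 ratio of 1.44 ± 0.76 (SE; edgeR adjusted p = 0.149). SNRPF had 2542, 20 and 1544 reads, at 1.48 ± 0.89 (edgeR adjusted p = 0.214), and passed without replicate 2, at 1.60.

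Most other Sm genes were low in replicate 2, as SNRPF was. SNRPD2 had 1208, 8 and 553 reads, SNRPD3 (ENSDARG00000076283) 724, 25 and 1329, and its other row (ENSDARG00000013800) 313, 3 and 96. SNRPG had 54, 3 and 136 reads. Replicate 2 was the lowest library in these genes. SNRPD1 had 434, 11 and 1 reads and SNRPB 1, 1 and 197, so each had nearly all its reads in a single library. Of the 7 tested Sm rows, 5 were lowest in replicate 2, beside 41.3% of all tested genes. The 8 Sm rows summed to 160, 54.6 and 120 CPM in replicates 1, 2 and 3.

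Most genes of proteins specific to U1 and U2 were as uneven. SNRPA1, of the U2 particle, was steady at 758, 635 and 606 reads, with 19.2 ± 4.05 CPM (SD, n = 3) and a log2 ratio of 0.64 ± 1.03. SNRPB2, its partner in U2, had 510, 4 and 647 reads. Of the U1 proteins, SNRPA had 4, 524 and 17 reads and SNRPC 0, 0 and 325. SNRPA1, SNRPB2 and SNRPA did not pass the edgeR test, and SNRPC was below the filter.

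The PRPF genes, whose proteins form the U5 core, the tri-snRNP and the Prp19 complex, were the family least often found in all libraries. Tests covered 7 of 11 prpf genes. By edgeR 0 were above or below the median gene, beside the background of 23.4% above and 1.24% below. At least 10 reads in all 3 libraries were found for 1 gene, 9.09% beside 15% of genes with a symbol. That 1 gene was prpf38b, with 692, 233 and 365 reads and a log2 ratio of -0.07 ± 1.30. PRPF8, the protein at the catalytic core, had 435, 2484 and 9 reads, at 1.50 ± 1.13 (SE; edgeR adjusted p = 0.364). PRPF18, which acts in the second step of splicing, had 2, 1130 and 1289 reads, at 0.98 ± 1.20. PRPF38A had 631, 3 and 316 reads.

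Others had nearly all their reads in 1 library. PRPF19, a ubiquitin ligase, had 4, 0 and 1008 reads, PRPF3 1, 0 and 810, PRPF6 2, 2 and 315, and PRPF4 0, 0 and 209. These 4 had their reads in replicate 3, the library with the most genes detected. PRPF31 had 1, 170 and 462 reads and PRPF39 5, 418 and 45. Among the 4 members called below the median gene by limma-trend, and not by edgeR, were SNRPD1, SNRPG and U2AF1.

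**Figure D3:**
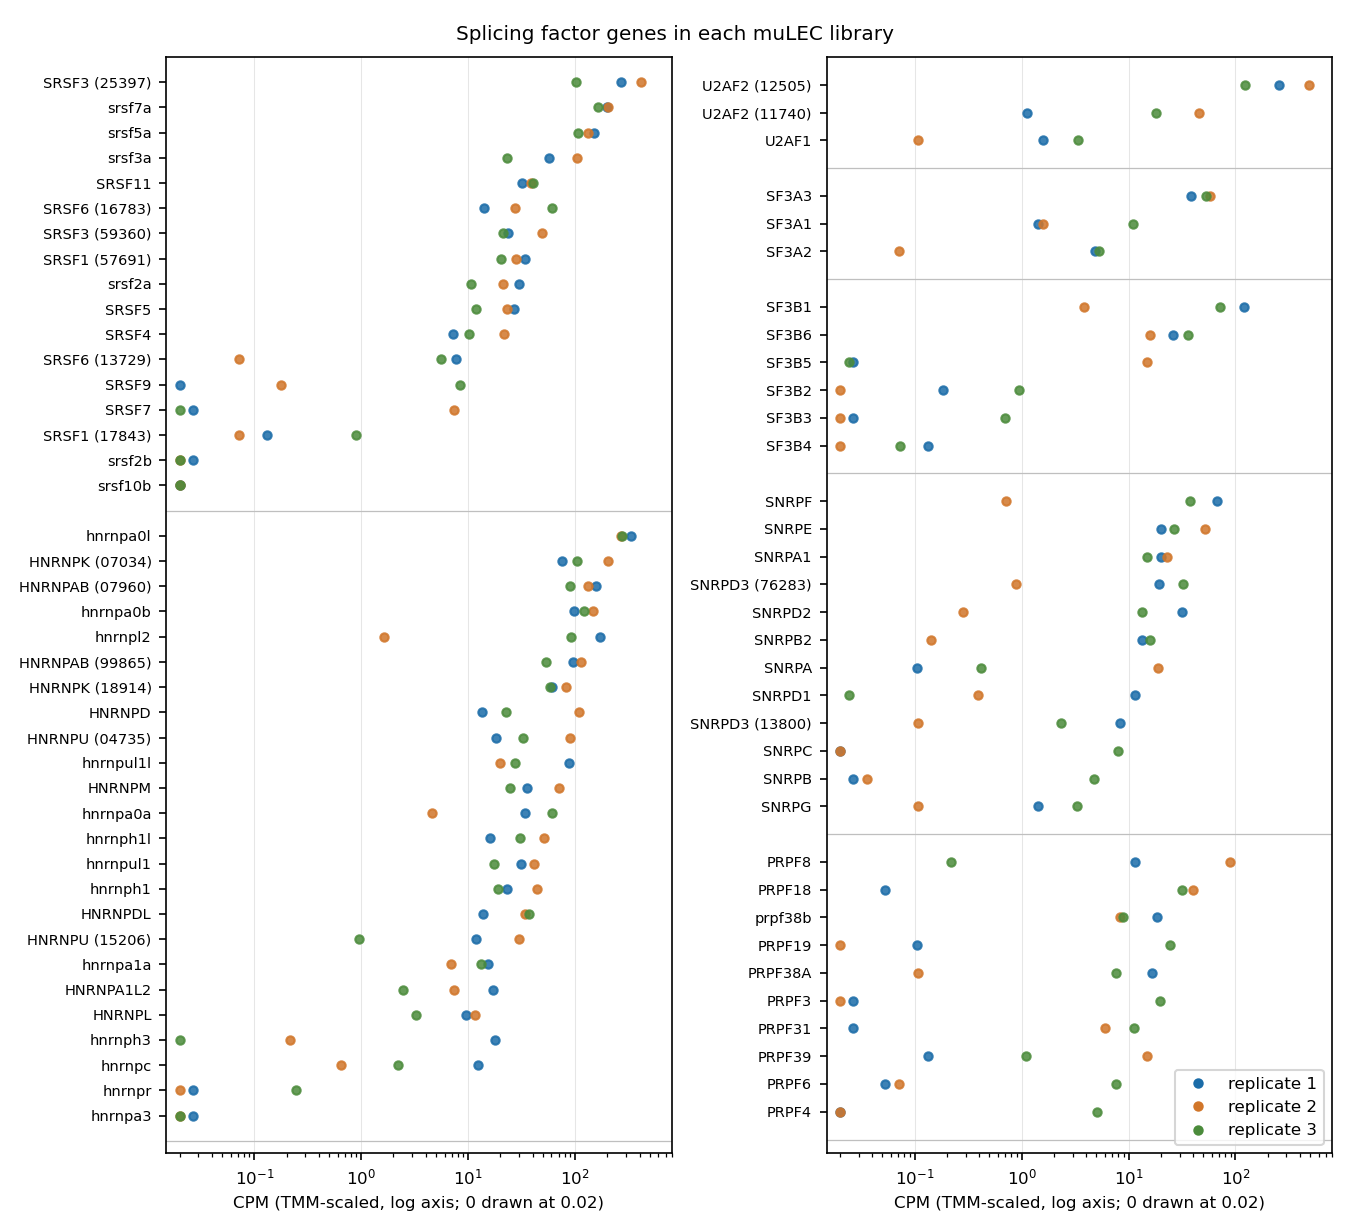
Each row is 1 of 75 of the splicing factor genes, grouped by family and ordered by mean, and its 3 points give the TMM-scaled CPM in replicates 1, 2 and 3 on a log axis, with 0 drawn at 0.02; rows that share a symbol carry the last digits of their gene ID. Points of srsf7a, srsf5a, hnrnpa0l and hnrnpa0b lie close together, while those of the leading SRSF3 row run from 103 to 413 CPM. Among high hnrnp rows, hnrnpl2 has a point far to the left, at 1.64 CPM in replicate 2. Many snrp and prpf rows also have a point far to the left of the others. SNRPF, for example, has 20 reads in replicate 2 against 2542 and 1544 in the others.

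Loss of a gene from 1 or more libraries was counted over genes with at least 100 reads in some library. Under 10 reads in another library were found for 24 of 67 such members, 35.8%, beside 57% of the 9000 such genes with a symbol. The families differed: 1 of 22 hnrnp genes (4.55%), 3 of 14 srsf genes (21.4%), 8 of 12 snrp genes (66.7%) and 9 of 10 prpf genes (90%). The shares depend on level. Among genes whose best library held 100 to 1000 reads, 69% of 29 members and 80.4% of all genes with a symbol had such a gap, and among those with 1000 reads or more 10.5% of 38 members and 21.5% of all. Within the upper class the gap was found in 0 of 16 hnrnp, 0 of 10 srsf, 1 of 4 snrp and 3 of 3 prpf genes. Within the lower class it was found in 1 of 6 hnrnp, 3 of 4 srsf, 7 of 8 snrp and 6 of 7 prpf genes. There the srsf, snrp and prpf shares, 75%, 87.5% and 85.7%, were near that of all genes, and the hnrnp share, 16.7%, was lower.

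By library, 70% of these prpf genes had under 10 reads in replicate 1, beside 31% of all such genes, 50% in replicate 2, beside 40.8%, and 10% in replicate 3, beside 14.9%. For snrp genes the shares were 25%, 50% and 8.33%. The snrp gaps of replicate 2 were therefore near what that library showed over all genes. For hnrnp genes they were 0%, 4.55% and 4.55%. With 10 to 22 genes in each of these families, and genes that share the same 3 libraries, these shares are a description and were not tested. The amplified reads hold no molecule count, so a gap of this kind does not show that a transcript was absent from the cells.

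**Figure D4:**
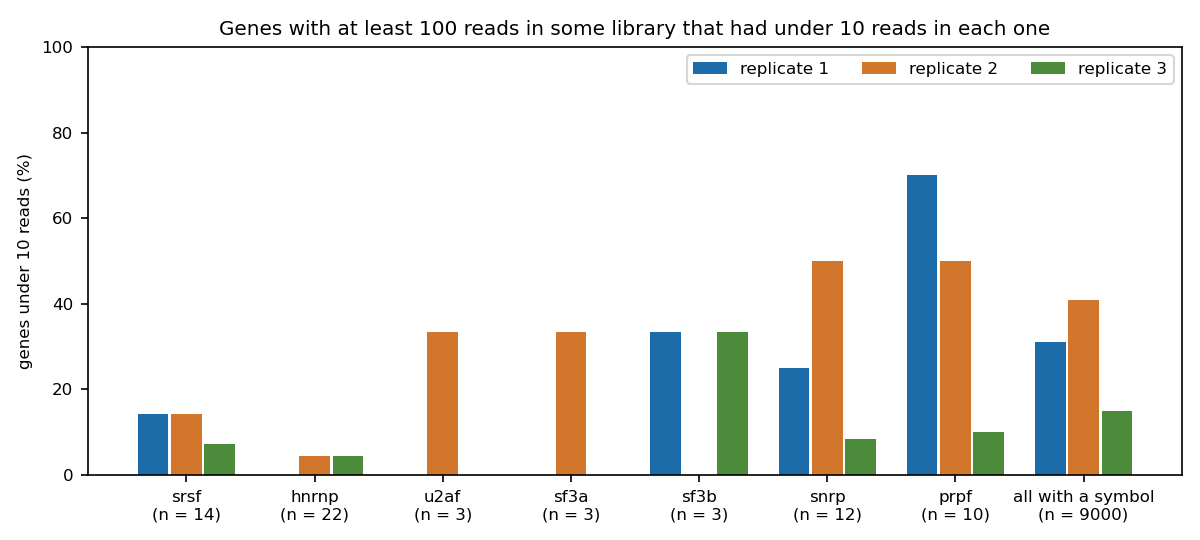
For each family, and for all genes with a symbol, bars give the share (%) of genes with at least 100 reads in some library that had under 10 reads in replicate 1, 2 or 3; n is the number of such genes. The hnrnp bars are at 4.55% or less, the prpf bars reach 70% in replicate 1, and all genes with a symbol stand at 31%, 40.8% and 14.9%.

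Among tested members the spread between libraries, as the coefficient of variation of CPM, had a median of 0.686, beside 0.868 for all tested genes. Under 10 CPM the median was 1.01 over 16 members and 1.01 over 2780 genes. From 10 to 50 CPM it was 0.550 over 29 members and 0.863 over 2948 genes, and from 50 to 200 CPM 0.307 over 10 members and 0.420 over 996 genes. At 200 CPM or more it was 0.595 over 3 members (SRSF3, U2AF2 and hnrnpa0l), beside 0.326 over 387 genes. By these medians the members were below the other genes in the middle ranges, level with them in the lowest and above them in the highest. In the highest range SRSF3 and U2AF2 had 0.595 and 0.642, and hnrnpa0l had 0.121. malat1 itself had a coefficient of 0.425. These values are on the TMM scale. The median of all tested members was 0.584 on plain library size and 0.712 with DESeq2 size factors.

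malat1 was highest in replicate 2 and lowest in replicate 3 on each of 3 scales: TMM, plain library size, and library size without its own reads. On the TMM scale 14 of 58 tested members stood in that order, 24.1%, beside 17.8% of all tested genes. On plain library size 8 members did, 13.8% beside 11.9%, and without the reads of malat1 10 members, 17.2% beside 14.1%. Of the 18 members above the median gene, 38.9%, 22.2% and 27.8% stood in that order on these scales, beside 31%, 17% and 22% of all genes above. Among those members, SRSF3, srsf3a, U2AF2 and HNRNPM were in that order on all 3 scales. The 3 libraries allow no test of whether a gene moved with malat1.

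Which library led depended on the scale. On the TMM scale 20, 26 and 12 tested members were highest in replicates 1, 2 and 3, beside 30.7%, 39.7% and 29.6% of all tested genes. On plain library size the numbers were 24, 18 and 16, beside 32.1%, 28.9% and 39%.

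Several members have more than 1 row, and the ratio of reads between them could be followed within each library, where scaling between libraries plays no part. Of 2 pairs of symbols that differ in a final a or b with both rows tested, hnrnpa0a had fewer reads than hnrnpa0b in 3 of 3 libraries. The log2 ratios were -1.50, -5.01 and -0.99 (mean -2.50 ± 2.19, SD, n = 3, exact two-sided sign-flip permutation p = 0.25, adjusted p = 0.25). PRPF38A and prpf38b, which are separate genes in human too, had log2 ratios of -0.13, -6.06 and -0.21 (mean -2.13 ± 3.40, exact permutation p = 0.25, adjusted p = 0.25). The p of 0.25 is the smallest that 3 libraries allow. Without replicate 2 the mean ratios were -1.25 and -0.17.

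A further 10 pairs of rows share a symbol or are listed as a gene and its a copy, and were added after their values were seen. In 10 of 10 pairs the same row had more reads in all 3 libraries (exact permutation p = 0.25 for each). The pairs are not independent, since both SRSF3 rows and srsf3a each enter more than 1 of them. How often other pairs of genes keep the same order was not counted. The ratio was tightest for SRSF3 over srsf3a, with an SD of 0.13, and for the HNRNPAB pair, with 0.29. It was loosest for the SRSF6 pair, with an SD of 3.77, where ENSDARG00000016783 had 527, 768 and 2490 reads and ENSDARG00000013729 had 293, 2 and 231. The HNRNPU pair also varied, at log2 ratios of 0.62, 1.58 and 5.07, the second row (ENSDARG00000015206) having 443, 844 and 39 reads. Without transcript lengths these ratios compare reads and not molecules, and reads shared between similar copies could not be checked.

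Other genes of nuclear RNA processing, 171 rows in 9 lists, were read beside the members. Of 114 tested, 25 were above the median gene by edgeR, 21.9% beside the background of 23.4%, and 0 below, with 2 below at an unadjusted p under 0.05. DESeq2 called 0 below, with 0 at an unadjusted p under 0.05, and limma-trend 10. By mean CPM, the leading genes were sfpq, sona and clk4a. sfpq, a paraspeckle protein gene, had 53404, 42121 and 21836 reads, 1150 ± 538 CPM (SD, n = 3) and a log2 ratio of 6.56 ± 0.35 (SE; edgeR adjusted p = 3.92e-13). Its partner gene NONO had 5273, 12440 and 8437 reads, at 4.44 ± 0.38, with a mean of 263 CPM that was 172 CPM without replicate 2. All 9 paraspeckle and FET genes were tested, and 4 were above the median gene, 44.4% beside 23.4%. The count was 2 of 7 without replicate 1 (28.6% beside 23.3%) and 3 of 7 without replicate 2 (42.9% beside 27.2%). It was 2 of 7 without replicate 3 (28.6% beside 21.1%). Among the 4 genes, ewsr1b had 2417, 1032 and 1204 reads, at 1.81 ± 0.60, lost without replicate 1 (0.55) and without replicate 3 (0.92).

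sona, a copy of the speckle scaffold gene SON, had 35995, 31944 and 10049 reads, with a log2 ratio of 6.00 ± 0.40 (SE; edgeR adjusted p = 7.80e-12). clk4a, a kinase gene for SR proteins, had 21476, 23550 and 12568 reads, at 5.56 ± 0.34. Both had their fewest reads in replicate 3, as malat1 did. On the TMM scale 5 of the 9 tested kinase and matrix genes were lowest in replicate 3, beside 1869 of all 7111 tested genes. The others of that list above the median gene, acin1a, TRA2A and srrm1, were lowest in replicate 2. acin1a, of the exon-bound apoptosis and splicing complex, had 4569, 1921 and 4111 reads, at 2.96 ± 0.39. Of the 16 kinase and matrix genes, 9 entered the test and 5 were above the median gene, 55.6% beside 23.4%. The count was 3 of 8 without replicate 1 (37.5% beside 23.3%) and 3 of 8 without replicate 3 (37.5% beside 21.1%). In those fits TRA2A and srrm1 lost their calls. Without replicate 2 the count was 5 of 9 (55.6% beside 27.2%).

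Of 32 splicing regulators outside the SR and hnRNP families, the test covered 20, and 5 were above, 25% beside 23.4%. The count was 3 of 14 without replicate 1 (21.4% beside 23.3%) and 6 of 18 without replicate 2 (33.3% beside 27.2%). It was 3 of 16 without replicate 3 (18.8% beside 21.1%). SYNCRIP, an hnRNP-like RNA-binding protein gene, had 10838, 23648 and 15262 reads, at 5.37 ± 0.36. qkia had 3130, 3568 and 5165 reads, at 3.19 ± 0.38, and ELAVL1, which binds AU-rich RNA, had 2637, 5499 and 1736, at 3.10 ± 0.49. Replicate 2 was the highest library for SYNCRIP and ELAVL1. Without it their means of 501 and 103 CPM were 329 and 56.0 CPM.

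Of 20 LSm and Sm assembly genes, 14 entered the test and 3 were above, 21.4% beside 23.4%. The count was 2 of 9 without replicate 1 (22.2% beside 23.3%) and 2 of 14 without replicate 2 (14.3% beside 27.2%). It was 1 of 9 without replicate 3 (11.1% beside 21.1%). PRMT5, the enzyme that methylates Sm proteins, had 5852, 7536 and 3722 reads, at 3.82 ± 0.39. LSM7 had 1499, 1501 and 2852 reads, at 2.14 ± 0.52, lost without replicate 3 (0.75). LSM3 had 1543, 1325 and 1227 reads, at 1.68 ± 0.65, lost without replicate 1 (0.74), 2 (1.04) or 3 (0.68). Only PRMT5 of these was called with each library left out.

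Of 17 exon junction and export genes, 13 entered the test and 4 were above, 30.8% beside 23.4%. The count was 3 of 9 without replicate 1 (33.3% beside 23.3%) and 4 of 12 without replicate 2 (33.3% beside 27.2%). It was 2 of 8 without replicate 3 (25% beside 21.1%). THOC2, of the THO complex, had 2943, 4575 and 4034 reads, at 3.21 ± 0.40, and alyref, an export adaptor gene, had 3026, 2392 and 2126, at 2.56 ± 0.45. Both calls held with each library left out. RBM8A, of the exon junction core, had 1644, 3277 and 1706 reads, at 2.48 ± 0.53, lost without replicate 3 (1.50), and its mean of 67.4 CPM was 42.5 CPM without replicate 2.

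Of 28 tri-snRNP, Prp19 complex and helicase genes, 20 entered the test and 2 were above, 10% beside 23.4%. The count was 0 of 17 without replicate 1 (beside 23.3%) and 0 of 9 without replicate 3 (beside 21.1%). It was 2 of 12 without replicate 2 (16.7% beside 27.2%). BCAS2, of the Prp19 complex, had 3818, 1351 and 2308 reads, at 2.47 ± 0.46, lost without replicates 1 (1.25) and 3 (1.50). BUD31 had 2414, 1856 and 989 reads, at 2.07 ± 0.58, lost without replicates 1 (0.91) and 3 (1.25). sart1, which brings the tri-snRNP to the spliceosome in human cells, had 113, 2888 and 384 reads and did not pass.

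Of 25 early complex genes, 17 entered the test and 2 were above, 11.8% beside 23.4%. The count was 0 of 14 without replicate 1 (beside 23.3%) and 0 of 15 without replicate 3 (beside 21.1%). It was 2 of 16 without replicate 2 (12.5% beside 27.2%). puf60a, akin to U2AF2, had 1011, 2256 and 1695 reads, at 2.03 ± 0.60, lost without replicate 1 (1.38), 2 (1.01) or 3 (0.91). RBM39 had 1554, 946 and 1657 reads, at 1.64 ± 0.63, lost without replicates 1 (0.76) and 3 (0.47). rbm25a had 657, 1446 and 1348 reads and did not pass.

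Cleavage and polyadenylation and the minor spliceosome held no edgeR calls with all 3 libraries, beside 23.4% of all tested genes above and 1.24% below. In other runs some calls were below. The share of all genes below was 14.7% by limma-trend and was not counted for the other runs named here. CPSF2 had 10, 92 and 39 reads and was called below without replicate 1 (-3.53) and without replicate 2 (-4.78). It was also below with 10 reads in all 3 libraries, and CPSF2 and CSTF3 were below by limma-trend. Of 18 cleavage and polyadenylation genes, 10 entered the test, with PCF11 at 1194, 16 and 1170 reads, PAPOLA at 633, 104 and 1036 and PAPOLG at 506, 6 and 570. Replicate 2 was the lowest library for 6 of those 10, beside 41.3% of all tested genes. Of 6 minor spliceosome genes, 2 entered the test, RNPC3 with 1667, 172 and 938 reads and SCNM1 with 431, 1077 and 672, while ZCRB1 had 0, 0 and 543.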

How the data were processed

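The authors deposited counts: whole reads for each Ensembl gene ID in 3 libraries, in which no normalization was seen. Per the submitters' processing notes, the build was GRCz10, and bcl2fastq and R 3.2.2 were used; the sources used here name neither aligner nor counting program. A second deposited table holds the authors' YuGene score for the same genes. File columns named pvLEC were matched to the muLEC samples by replicate number. No row lacked a gene ID. Symbols came from a table of gene IDs that names 26269 of 32105 rows. It writes many symbols in human style, and rows without a symbol could not be members.

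Members, gene lists and tests were chosen with earlier results of these data known. Genes with at least 10 reads in 2 libraries were tested with edgeR 4.0.16 (quasi-likelihood, intercept against the library's median gene as offset). The steps were written out from glmQLFit, because glmQLFTest takes no design with 1 column. Tested on counts simulated for 7111 genes, it called 90% of 50 genes placed at 16 times the median gene and 50% of 50 at 4 times, 0% of 50 at 0.25 and 4% of 50 at 0.0625 of it, and 0.5% of 200 at the median. A lack of calls below the median therefore says little. Because 50% were called at 4 times the median gene, a gene not called above may still lie above it. TMM factors were 1.05, 0.796 and 1.20. DESeq2 1.42.0 and limma 3.58.1 (limma-trend) were alternatives. Planned tests per coding length were not run, since lengths were not used here. A read ratio between rows used 0.5 added to each count.

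Named genes were malat1, the 4 tested genes of highest mean CPM in each family, the 6 most and 6 least even members of at least 20 CPM, pairs of copies, the 4 untested members with the most reads in 1 library, and the 3 highest in each list. Other members were named after their values were seen, to account for each family, as were some genes of the lists. 1 member enters the counts and is not reported by itself here. Stems of listed genes were matched to symbols that equal them or add a or b. Amplified reads are not independent molecules.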

Additional observations from a re-analysis of the deposited data

How the results depend on the processing

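The log2 ratio of malat1 stayed above 0 and called in each alternative run, from 12.79 with the upper quartile gene as reference to 22.31 with no filter, and 13.60 to 13.66 without 1 replicate. Its level was 223222 to 344705 CPM without 1 replicate. The number of members above the median gene, 18, was 61 with no filter, where the median of 18455 genes had 3, 1 and 17 reads, 10 with at least 10 reads in all 3 libraries, 8 against the upper quartile gene and 9 to 16 without 1 replicate. Of the 18, 18 were called by DESeq2 and with its size factors, 17 with TMM scaling, 17 by limma-trend and 16 with small counts set to 0. Members below, 0, were 4 by limma-trend and 0 to 2 without 1 replicate. Members tested, 58, were 36 with at least 50 reads in all 3 libraries, a filter chosen after seeing the data, and 46 to 51 without 1 replicate. Their median log2 ratio, 1.18, was 0.95 with TMM scaling, 0.95 with DESeq2 size factors, 7.88 with no filter, 0.30 with 10 reads in all 3 libraries, 0.71 by limma-trend, 0.35 to 0.66 without 1 replicate and, reversed, -0.52 against the upper quartile gene. Genes of the other lists above, 25, were 129 with no filter, 12 with 10 reads in all 3 libraries, 9 against the upper quartile gene and 11 to 24 without 1 replicate; those below, 0, were 2 with 10 reads in all 3 libraries, 10 by limma-trend and 3 in each fit without 1 replicate. A filter or reference that leaves higher genes to compare with moves log2 ratios down by construction. Other causes were not tested. For the runs with another filter or reference, the share of all genes called was not counted. Those counts of members and list genes therefore have no background beside them.

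The sign of the log2 ratio reversed for some named genes. Against the upper quartile gene the log2 ratio was -0.54 for SF3B6, -0.069 for SNRPF, -0.32 for SNRPE, -1.06 for SNRPA1, -1.07 for SNRPD3, -0.98 for U2AF2 (ENSDARG00000011740), -0.41 for PRPF8, -0.78 for PRPF18, -0.088 for SRSF11, -0.14 for hnrnpa0a, -0.26 for rbm25a, -0.21 for sart1, -0.86 for PCF11, -1.29 for PAPOLA, -0.62 for RNPC3 and -0.91 for SCNM1, and also for RBM39 (-0.021) and LSM3 (-0.022), which were called above in the test as reported. With 10 reads in all 3 libraries it was -0.077 for SF3B6, -0.59 for SNRPA1, -0.60 for SNRPD3, -0.50 for that U2AF2 row, -0.41 for PCF11, -0.82 for PAPOLA, -0.17 for RNPC3 and -0.43 for SCNM1. By limma-trend it was -0.24 for SNRPD3, -0.13 for that U2AF2 row, -0.34 for PRPF8, -0.27 for PRPF18, -0.15 for PCF11 and -0.018 for PAPOLA. With no filter it was 4.89 for SF3A1, 4.67 for SF3A2, 3.38 for U2AF1, 7.34 for prpf38b, 6.27 for PRPF38A and 6.12 for PAPOLG. Without 1 replicate it ran from -0.34 to 0.89 for SF3B6, -0.36 to 0.020 for SNRPA1, -1.33 to 0.61 for SNRPD3, -0.78 to 0.41 for that U2AF2 row, -0.39 to 1.50 for hnrnpa0a, -1.44 to 1.13 for sart1, -0.64 to 0.81 for PCF11, -1.34 to 0.31 for PAPOLA, -0.48 to 0.95 for RNPC3 and -0.29 to 0.20 for SCNM1. Read ratios within the pairs of symbols that differ in a final a or b kept their sign, from -3.26 to -1.25 for hnrnpa0a over hnrnpa0b and from -3.13 to -0.17 for PRPF38A over prpf38b. The alternative with coding length was not run. No paired analysis was possible because there is 1 group.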
